A study of Rattus norvegicus with 10 samples.

Results

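The 10 genes described here encode the calcium-regulated phosphodiesterases Pde1a, Pde1b and Pde1c, the dual enzyme Pde2a, the cGMP enzymes Pde5a and Pde9a, and the cAMP enzymes Pde7a, Pde7b, Pde8a and Pde8b. They were chosen by symbol, and all 10 were found among the 17168 rows of the count table and passed the filter on low counts. Each of the 10 libraries is from 1 female TgF344-AD rat, killed at 11 months of age, and holds RNA of its left hippocampus. The rats carry human mutant amyloid precursor protein and presenilin transgenes under a prion promoter and serve as a model of Alzheimer disease. In the ibudilast group, 5 rats received chow with ibudilast from 5 months of age for 6 months, and in the untreated group 5 rats received plain rodent chow. Both groups were transgenic, so no comparison here has a wild-type control, and the dose is not given in the labels used here.

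Cyclic nucleotide phosphodiesterases end cAMP and cGMP signals by opening the cyclic phosphate ring. PDE1 enzymes are switched on by calcium bound to calmodulin and cut both nucleotides, PDE2A cuts both and is stimulated by cGMP, PDE5A and PDE9A are selective for cGMP, and PDE7 and PDE8 enzymes are selective for cAMP. In the brain, PDE1B is best known from striatal neurons, PDE2A from cortical and hippocampal neurons and their terminals, and PDE5A from vascular smooth muscle and cerebellar Purkinje cells. Ibudilast is best known as an inhibitor of the PDE3, PDE4, PDE10 and PDE11 families, so all 10 genes encode enzymes outside these families.

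Total estimated counts ran from 6960066 to 10121571 per library. Levels are given in CPM, that is, counts per library size after TMM scaling, which are not adjusted for gene length, so levels are compared between libraries and not between genes. The library ibudilast 3 stood apart. Its summed level of 10 cerebellar neuron markers was 5902 CPM, where the other 9 had 278 to 959 CPM, and Gabra6, a gene of cerebellar granule cells, stood at 449 CPM there and at no more than 0.49 CPM elsewhere. Thalamic neuron markers summed to 498 CPM there and to 109 to 187 CPM in the other 9. Interneuron markers summed to 1884 CPM there and to 489 to 1079.9 CPM in the other 9. Meningeal fibroblast markers were high in ibudilast 3 and ibudilast 5 (606 and 687 CPM in sum, the rest 50.8 to 114 CPM), and choroid plexus markers in untreated 1 (2574 CPM, the rest 3.4 to 73.3 CPM). Neocortical neuron markers had sums of 361 to 499 CPM without and 622 to 1058 CPM with ibudilast, with no overlap, and 6 of the 11 tested rose and none fell. Hippocampal neuron markers were present in all libraries, with sums of 594 to 1552 CPM without and 428 to 933 CPM with ibudilast, and 5 of 10 tested fell.

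The comparison asks whether treatment with a phosphodiesterase inhibitor goes with other levels of these genes. Of the 10 genes, 3 rose with ibudilast, namely Pde5a, Pde7a and Pde8b, and none fell (edgeR, adjusted p under 0.05, Benjamini-Hochberg over all 11682 genes tested). At an unadjusted p under 0.05 there were 5 higher and 0 lower, where 25.4% of all tested genes were higher and 23.8% lower. DESeq2 called 2 higher and 0 lower, where it called 17.8% of all genes higher. With edgeR 38.5% of all tested genes were called, 20.0% higher and 18.5% lower. With 10 genes, 3 is close to that background share and is not a result about the family. The median log2 fold change of the 10 genes was 0.62, against 0.007 for all tested genes. In the 2 deciles of longest genomic span, which hold 9 of the 10 members, 36.3% and 38.2% of genes were called higher, and in the decile of shortest genes 5.66%. The median log2 fold changes of the 2 deciles of longest span were 0.26 and 0.38, above the 0.007 of all tested genes. With a trend of expression on span removed, 1 of the 10 genes passed, Pde5a, where 15.8% of all genes were called higher.

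The count depended on single libraries. It was 5 without ibudilast 3 (Pde1a, Pde1b, Pde2a, Pde5a and Pde8b), where 22.0% of all genes were called higher and 18.6% lower, and 4 without untreated 5 (those 3 and Pde1a), where 21.4% were. It was 2 (Pde5a and Pde7a) without untreated 2, ibudilast 1 or ibudilast 5, where 16.7%, 20.8% and 17.0% of all genes were called higher. It was 1 (Pde5a) without untreated 1, untreated 3, untreated 4, ibudilast 2 or ibudilast 4, where 15.7%, 16.1%, 17.9%, 16.3% and 16.8% were. Upper-quartile factors and limma-voom each called 1 gene (Pde5a and Pde7a), where 17.8% and 19.1% of all genes were called higher, and a hippocampal marker score as covariate called 0 of the 10 and 7.30% of all genes. The replicate number as a block left 2 (Pde5a and Pde8b), where 16.0% were called higher. Without ibudilast 3, ibudilast 5 and untreated 1 together, 4 genes passed (Pde1a, Pde1b, Pde5a and Pde8b), where 15.0% of all genes were called higher. The tissue was sequenced in bulk, so fewer cells of a type and less RNA per cell cannot be told apart.

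**Figure D1:**
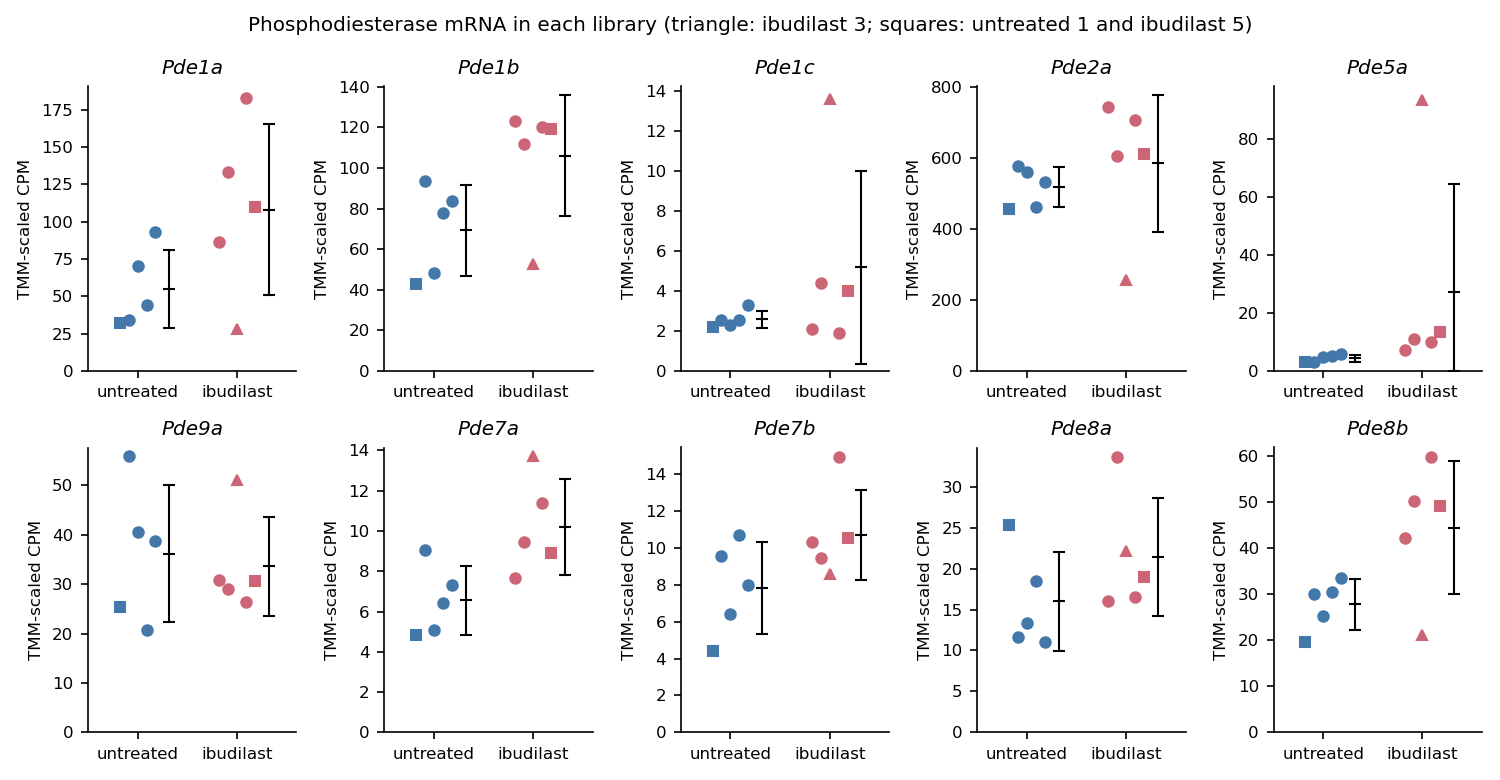
TMM-scaled CPM of the 10 phosphodiesterase genes (vertical axes, from 0) in each untreated (blue) and ibudilast (red) library. The black marks are group means with SD (n = 5 each, lower end of the bar cut at 0 for Pde5a), the triangle is ibudilast 3 and the squares are untreated 1 and ibudilast 5. In ibudilast 3, Pde1a (28.0 CPM) and Pde2a (257 CPM) were the lowest of the 10 libraries, and Pde1c (13.6 CPM), Pde5a (93.7 CPM) and Pde7a (13.7 CPM) the highest.

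Among the calcium-regulated genes, none of the 3 passed the test with all libraries. Pde1a, whose enzyme prefers cGMP, stood at 32.1, 34.1, 70.0, 44.2 and 92.7 CPM in untreated 1 to 5 and at 86.5, 133, 28.0, 183 and 109.6 CPM in ibudilast 1 to 5. The groups overlapped, with ibudilast 3 below every untreated library and untreated 5 above ibudilast 1. The means were 54.6 ± 26.1 and 108 ± 57.2 CPM (SD, n = 5 each), and the log2 fold change was 0.98 ± 0.44 (SE; edgeR adjusted p = 0.0954). Without ibudilast 3 it was 1.23 (edgeR adjusted p = 0.0117), and without untreated 5 it was 1.28 (edgeR adjusted p = 0.0478).

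Pde1b, also a calcium- and calmodulin-activated enzyme gene, stood at 42.9, 93.6, 48.4, 77.7 and 83.9 CPM in untreated 1 to 5 and at 123, 112, 52.9, 119.9 and 119 CPM in ibudilast 1 to 5. In the ibudilast group 4 of 5 libraries lay within 112 to 123 CPM, above all untreated libraries, and ibudilast 3 lay among the untreated ones. Its log2 fold change was 0.61 ± 0.27 (SE; edgeR adjusted p = 0.0915), and without ibudilast 3 it was 0.78 (edgeR adjusted p = 0.0139). Pde1c, whose enzyme cuts cAMP and cGMP about equally well, was scarce. It stood at 2.21 to 3.31 CPM in untreated libraries (15 to 24 counts each), and at 2.08, 4.4, 13.6, 1.88 and 3.98 CPM in ibudilast 1 to 5. Its log2 fold change was 1.00 ± 0.50 (SE; edgeR adjusted p = 0.132) and came down to 0.27 without ibudilast 3 (edgeR adjusted p = 0.495).

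Pde2a, the gene of the cGMP-stimulated enzyme, had the most counts of the 10 in every library, 2279 to 6449. It stood at 455, 577, 559.6, 462 and 533 CPM in untreated 1 to 5 and at 742, 606, 257, 705 and 611 CPM in ibudilast 1 to 5. All ibudilast libraries except ibudilast 3 were above the highest untreated library. With all libraries the log2 fold change was 0.18 ± 0.23 (SE; edgeR adjusted p = 0.572), and without ibudilast 3 it was 0.37 (edgeR adjusted p = 0.0171). Without ibudilast 3, 4 of the 10 genes (Pde1b, Pde2a, Pde5a and Pde8b) had all ibudilast libraries above all untreated ones, as did 16.9% of all tested genes. With all libraries it was 1 of 10, Pde5a, where 24.3% of all tested genes had groups without overlap, 12.5% with ibudilast higher and 11.7% with ibudilast lower.

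Pde5a, which encodes the cGMP-specific enzyme that sildenafil blocks, had the largest log2 fold change of the 10 genes. It stood at 2.95, 3.06, 4.78, 5.23 and 5.79 CPM in untreated 1 to 5 and at 7.3, 11.1, 93.7, 9.85 and 13.6 CPM in ibudilast 1 to 5. All ibudilast libraries were above all untreated ones, and ibudilast 3 was far above the rest. The means were 4.36 ± 1.29 and 27.1 ± 37.3 CPM (SD, n = 5 each), and the log2 fold change was 2.63 ± 0.73 (SE; edgeR adjusted p = 0.0156). Without ibudilast 3 the log2 fold change was 1.27 (edgeR adjusted p = 0.00337). Pde5a passed with each of the 10 libraries left out in turn. DESeq2 gave Pde5a no adjusted p, and limma-voom gave an adjusted p = 0.0777.

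Cerebellar markers were high in ibudilast 3, as given above. In the other ibudilast libraries their sum (567 to 959 CPM) was mostly Itpr1 (511, 819, 927 and 594 CPM in ibudilast 1, 2, 4 and 5), a calcium release channel gene that also made up most of the sum in untreated libraries (253 to 506 of 278 to 522 CPM). The cerebellar granule cell genes Gabra6 and Cbln3 were near 0 in ibudilast 1, 2, 4 and 5 (0 to 0.379 and 0.117 to 0.284 CPM), as in untreated libraries (0 to 0.49 and 0.138 to 0.403 CPM), and the Purkinje cell gene Pcp2 was at 0 to 0.261 CPM there, against 0 to 1.59 CPM in untreated libraries. Pde5a stood at 7.3 to 13.6 CPM in these 4 ibudilast libraries. The 10 smooth muscle and pericyte markers had their highest sums in ibudilast 3 (416 CPM) and ibudilast 5 (390.3 CPM), where the other 8 had 110.5 to 216 CPM, and 2 of 9 tested fell and none rose. In ibudilast 1, ibudilast 2 and ibudilast 4 their sums were 135, 135 and 110.5 CPM, and in untreated libraries 162 to 216 CPM. The 2 markers that fell were the pericyte genes Rgs5 (log2 fold change -0.64) and Higd1b (-1.21). The smooth muscle genes Myh11, Acta2 and Tagln had log2 fold changes of 1.49, 0.92 and 0.57. None of them passed (edgeR adjusted p from 0.0546 to 0.365), and without ibudilast 3 the values were 1.03, 0.49 and 0.23. Kcnj8, Abcc9, Pdgfrb and Vtn had -0.12, -0.28, 0.11 and 0.06 and did not pass. The list holds both smooth muscle and pericyte genes, so its sum cannot stand for either cell type alone. Microglia and astrocyte markers were lower in all ibudilast libraries, with sums of 260.3 to 486 CPM against 539 to 839 CPM and of 1981 to 3177 CPM against 3375 to 5178 CPM, and 8 of 9 and 4 of 7 tested fell. The part of the cerebellar, smooth muscle and pericyte, microglia and astrocyte markers in the Pde5a result was not tested.

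Promoter sequences were found for 6 of the 10 genes in RefSeq (GRCr8 build, 7 entries, each 250 bases before to 50 after a transcript start). The stretch before the Pde5a start is shown because Pde5a is the member with the largest change. It is on the plus strand, chr2:213543776-213544025, before a start that is not the outermost of the gene.
Pde5a: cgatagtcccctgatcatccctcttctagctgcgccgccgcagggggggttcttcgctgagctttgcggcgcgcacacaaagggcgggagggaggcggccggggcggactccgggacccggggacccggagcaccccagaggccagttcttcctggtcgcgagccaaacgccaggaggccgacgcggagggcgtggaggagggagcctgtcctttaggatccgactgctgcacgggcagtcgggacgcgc
The whole 300-base window of Pde5a had 69.7% G and C, more than 91.3% of all 33469 windows, and held 32 CG pairs. It held no full cAMP response element (TGACGTCA, searched on both strands), nor its core TGACG, nor the E-box CACGTG, as printed all in lower case. The full element was in 1.83% of all windows and in 0 of the 7 entries. The core, which is also part of the full element, was in 21.2% of all windows and in 1 of the 7, and the E-box in 6.42% and in 1 of the 7.

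Pde9a, the gene of the other cGMP-selective enzyme, did not pass. It stood at 25.3, 55.9, 40.5, 20.7 and 38.8 CPM in untreated 1 to 5 and at 30.9, 29.0, 51.1, 26.3 and 30.7 CPM in ibudilast 1 to 5. The ibudilast values all lay within the untreated range, with ibudilast 3 the highest of its group. Its log2 fold change was -0.11 ± 0.27 (SE; edgeR adjusted p = 0.768), and with 1 library left out it ran from -0.30 to 0.10.

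Of the cAMP-selective genes, 1 of each pair passed with all libraries. Pde7a went from 4.86, 9.06, 5.06, 6.44 and 7.31 CPM in untreated 1 to 5 to 7.69, 9.43, 13.7, 11.4 and 8.91 CPM in ibudilast 1 to 5. The groups overlapped, since untreated 2 was above ibudilast 1 and ibudilast 5. In Pde7a the log2 fold change was 0.64 ± 0.22 (SE; edgeR adjusted p = 0.0371), a call that was lost without untreated 1, untreated 3, untreated 4, ibudilast 2, ibudilast 3 or ibudilast 4, with edgeR adjusted p up to 0.0871. It was also lost with the span trend removed (log2 fold change 0.39, edgeR adjusted p = 0.173) and with upper-quartile scaling (edgeR adjusted p = 0.0524).

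Pde7b, the paralog of Pde7a, stood at 4.42, 9.55, 6.43, 10.7 and 8.0 CPM in untreated 1 to 5 and at 10.3, 9.43, 8.56, 14.9 and 10.5 CPM in ibudilast 1 to 5. All 5 ibudilast libraries were above the untreated mean of 7.83 CPM, yet the groups overlapped. Its log2 fold change was 0.45 ± 0.24 (SE; edgeR adjusted p = 0.152), and 0.04 with the span trend removed.

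Pde8b, a high-affinity cAMP enzyme gene, stood at 19.6, 29.98, 25.4, 30.6 and 33.5 CPM in untreated 1 to 5 and at 42.2, 50.3, 21.2, 59.9 and 49.1 CPM in ibudilast 1 to 5. Ibudilast 3 was lower than 4 of the 5 untreated libraries, and the other ibudilast libraries were above all of them. In Pde8b the log2 fold change was 0.68 ± 0.24 (SE; edgeR adjusted p = 0.0464). It was 0.86 without ibudilast 3 (edgeR adjusted p = 0.00213), and Pde8b did not pass without any 1 of the others except untreated 5, with edgeR adjusted p up to 0.109. With the span trend removed it was 0.30 (edgeR adjusted p = 0.29), or 0.46 with ibudilast 3 also left out (edgeR adjusted p = 0.0127), a fit in which 4 of the 10 genes passed and 17.4% of all genes were called higher.

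Pde8a, the other member of that family, stood at 25.3, 11.6, 13.3, 18.5 and 11.0 CPM in untreated 1 to 5 and at 16.0, 33.6, 22.1, 16.5 and 19.0 CPM in ibudilast 1 to 5. The groups overlapped, with untreated 1 above 4 of the 5 ibudilast libraries. Its log2 fold change was 0.43 ± 0.27 (SE; edgeR adjusted p = 0.229). Oligodendrocyte markers summed to 18449 CPM in untreated 1, 12987 CPM in untreated 4 and 11505 CPM in ibudilast 2, the libraries with the most Pde8a in their groups, and to 5558 to 6859 CPM in the other 7. None of the 8 oligodendrocyte markers passed in either direction.

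The 250 bases before the RefSeq starts of the PDE8 genes (GRCr8) are shown because they held the only matches to the motifs searched, which are in capitals. The Pde8a stretch is chr1:144575219-144575468 on the plus strand, and the Pde8b stretch is chr2:28116052-28116301 on the minus strand. Neither start is the outermost of its gene.
Pde8a: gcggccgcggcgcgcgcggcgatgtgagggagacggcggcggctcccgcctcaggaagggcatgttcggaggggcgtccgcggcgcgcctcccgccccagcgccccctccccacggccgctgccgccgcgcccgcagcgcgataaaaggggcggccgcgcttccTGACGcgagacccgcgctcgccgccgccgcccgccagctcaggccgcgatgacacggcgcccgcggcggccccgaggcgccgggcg
Pde8b: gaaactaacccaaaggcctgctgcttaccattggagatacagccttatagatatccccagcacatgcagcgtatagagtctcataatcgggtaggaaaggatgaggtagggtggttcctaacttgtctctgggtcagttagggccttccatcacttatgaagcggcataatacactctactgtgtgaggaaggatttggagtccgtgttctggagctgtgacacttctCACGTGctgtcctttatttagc
The capitals mark the core TGACG in Pde8a, 86 bases before the start, and the E-box CACGTG in Pde8b, 22 bases before the start. The windows differed in base composition, with 81.0% G and C in Pde8a and 49.7% in Pde8b. A match describes the letters only.

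**Figure D2:**
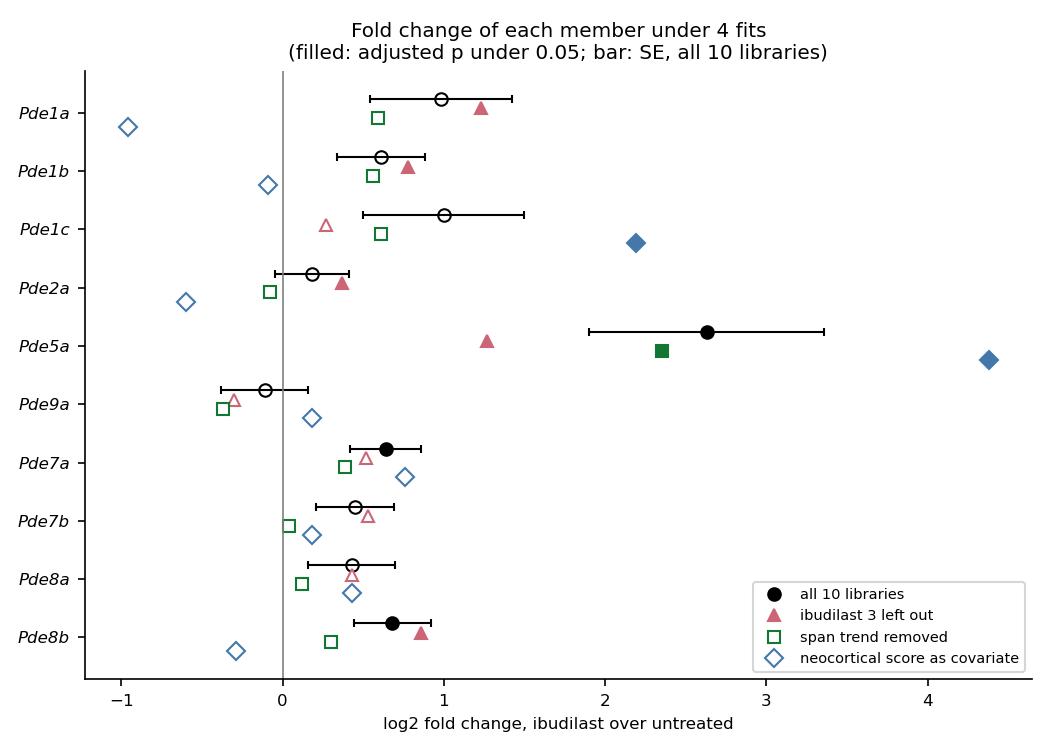
Log2 fold change (ibudilast over untreated, horizontal axis) of the 10 genes with all libraries (black, bar = SE), without ibudilast 3 (red triangles), with the span trend removed (green squares) and with the neocortical marker score as a covariate (blue diamonds). Filled symbols have an edgeR adjusted p under 0.05. Pde5a is filled in all 4 fits, at 1.27 to 4.38. In fits not drawn, Pde5a did not pass with limma-voom (1.93, adjusted p = 0.0777) or the hippocampal score (1.54, edgeR adjusted p = 0.343). Nor did it pass with the neocortical score and ibudilast 3 left out (0.85, edgeR adjusted p = 0.888), and DESeq2 gave it no adjusted p.

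No ratio between genes of 1 family passed a test of the difference between the groups. For Pde1a to Pde1b the log2 ratio was -0.40 ± 0.78 in untreated and -0.14 ± 0.60 in ibudilast libraries (SD, n = 5 each; two-sided exact permutation p = 0.587, Benjamini-Hochberg adjusted p = 0.962 over 5 ratios). The ratio of Pde1b to Pde1c was 4.44 ± 0.39 and 4.49 ± 1.52, with 1.92 in ibudilast 3 and 4.53 to 5.66 in the other ibudilast libraries. The ratio of Pde1a to Pde1c was 4.04 ± 0.55 and 4.35 ± 1.97. The ratio of Pde7a to Pde7b was -0.22 ± 0.31 and -0.07 ± 0.43, and that of Pde8a to Pde8b was -0.83 ± 0.75 and -1.01 ± 0.75. Exact permutation p-values of the last 4 ran from 0.587 to 0.968, and the differences of group means over the 5 ratios from -0.18 to 0.31 on the log2 scale. The SDs are as large as these differences or larger, so a shift between paralogs of that size was not detectable with 5 libraries a group.

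**Figure D3:**
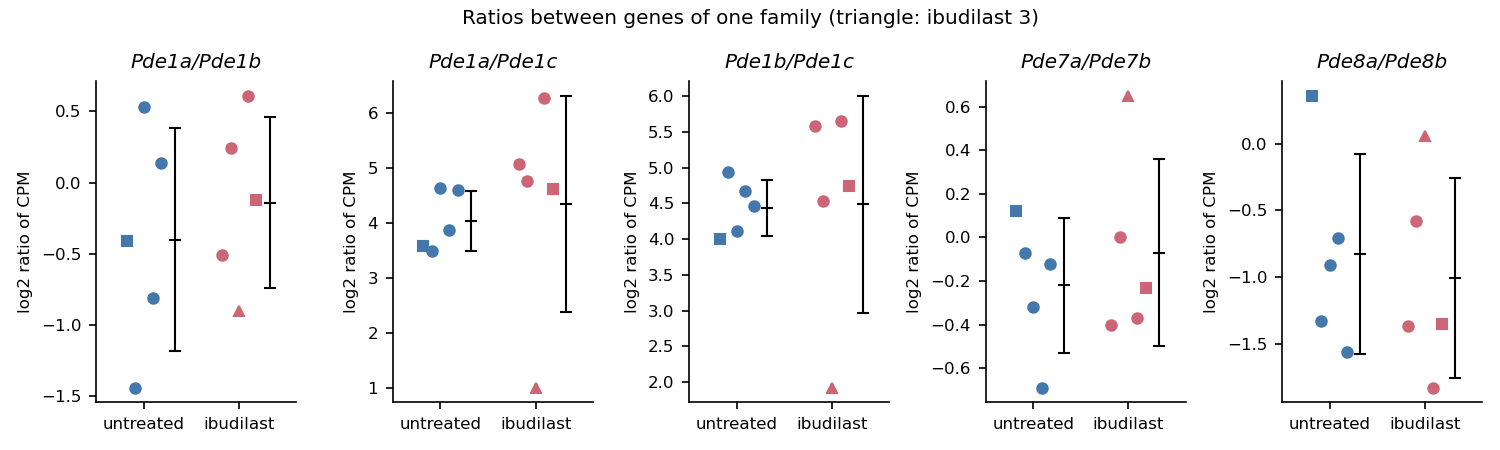
Log2 ratio of CPM (0.5 CPM added to each) between genes of 1 family (vertical axes) in untreated (blue) and ibudilast (red) libraries. The marks are means with SD, n = 5 each, the triangle is ibudilast 3 and the squares are untreated 1 and ibudilast 5. In ibudilast 3 the ratios to Pde1c were the lowest of the 10 libraries, 1.01 for Pde1a and 1.92 for Pde1b.

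The other phosphodiesterase genes give the nearest comparison. Over all tested genes 20.0% were called higher and 18.5% lower, and in the decile of longest span, which holds Pde4b, Pde4d and Pde10a, 38.2% were called higher. Of 13 such genes listed 12 were in the count file and 8 were tested, of which 4 rose and none fell, at a median of 0.58 (log2). They were Pde4d (1.63 ± 0.22), Pde4b (1.07 ± 0.19), Pde10a (1.03 ± 0.18) and Pde4a (0.82 ± 0.15; SE, edgeR adjusted p from 0.00098 to 0.00288). Each of these 4 had all ibudilast libraries above all untreated ones, and each passed with any 1 library left out, unlike Pde7a and Pde8b. Pde3a, Pde3b, Pde4c and Pde11a had log2 fold changes of 0.34, 0.21, -0.09 and -0.32 and did not pass. The visual PDE6 genes Pde6a, Pde6b, Pde6c and Pde6h were at most 0.664 CPM in any library and were not tested.

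Over all tested genes 20.0% were called higher and 18.5% lower, and in the decile of longest span, which holds Nos1 and Gucy1a2, 38.2% were called higher. Among genes that make, carry or read cGMP, 8 of 19 tested rose and 1 fell, at a median of 0.40 (log2). Subunits of the nitric oxide receptor, soluble guanylyl cyclase, were among them. Gucy1a3, also named Gucy1a1, had means of 8.14 ± 3.40 CPM in untreated and 42.2 ± 14.7 CPM in treated rats (SD, n = 5 each) and rose by 2.37 ± 0.31 on the log2 scale (SE; edgeR adjusted p = 0.000918), and Gucy1b3, also named Gucy1b1, rose by 1.02 ± 0.21 and Gucy1a2 by 1.79 ± 0.34. Nos1, the neuronal nitric oxide synthase gene, rose by 2.15 ± 0.47, with its highest level, 119 CPM, in ibudilast 3, and by 1.63 when that library was left out. The cGMP-dependent kinase gene Prkg2 and the natriuretic peptide receptor genes Npr1 and Npr3 rose, as did the transporter gene Abcc5. Prkg2 did not pass without untreated 1, untreated 3, ibudilast 1, ibudilast 2, ibudilast 4 or ibudilast 5, and Npr1 passed only without untreated 1, ibudilast 1 or ibudilast 4 (edgeR adjusted p up to 0.0796 and 0.11). Nppa, which encodes the atrial natriuretic peptide, fell by 1.34 on the log2 scale, or by 0.96 to 1.56 with 1 library left out, and did not pass without untreated 1, untreated 3 or ibudilast 5.

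Calmodulin is the activator of PDE1 enzymes. Of its genes, Calm2 fell by 0.36 on the log2 scale (SE 0.10, edgeR adjusted p = 0.0204), and did not pass without untreated 3 or ibudilast 5, while Calm3 had a log2 fold change of -0.12 and did not pass. Over all tested genes 20.0% were called higher and 18.5% lower, shares that are not matched for genomic span. Of 17 tested calcium and calmodulin partners 4 rose and 2 fell, at a median of -0.11 (log2). The calcium-stimulated adenylyl cyclase genes Adcy1 and Adcy8 rose by 2.15 ± 0.29 and 1.16 ± 0.20, the kinase genes Camkk2 and Camk4 by 1.58 ± 0.20 and 1.70 ± 0.31, and the calcineurin subunit gene Ppp3r1 fell by 0.65 on the log2 scale (SE; edgeR adjusted p from 0.000918 to 0.00789). Against the same shares, 10 of 20 tested genes of cAMP synthesis and response rose and none fell, with a median of 0.71. Those with the smallest p were Prkar2a, a regulatory subunit of protein kinase A (1.14 ± 0.17), the cyclase genes Adcy9 (1.67 ± 0.25) and Adcy6 (0.78 ± 0.15), and the cyclic nucleotide-gated pacemaker channel gene Hcn2 (0.89 ± 0.16).

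**Figure D4:**
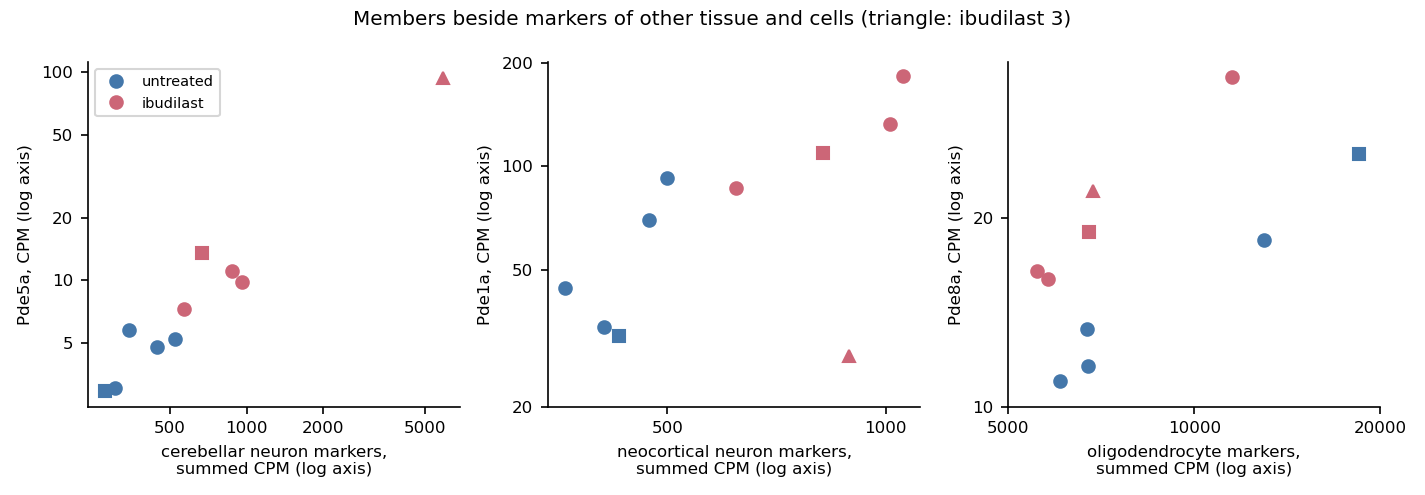
Levels of Pde5a, Pde1a and Pde8a (CPM, vertical log axes) against the summed CPM of cerebellar, neocortical and oligodendrocyte markers (horizontal log axes) in untreated (blue) and ibudilast (red) libraries, with ibudilast 3 as a triangle and untreated 1 and ibudilast 5 as squares. Most of the cerebellar sum outside ibudilast 3 is Itpr1. Ibudilast 3 has 5902 CPM of cerebellar markers and 93.7 CPM of Pde5a. It has 891 CPM of neocortical markers and the lowest Pde1a of all libraries, 28.0 CPM. The sum and the score differ here, since by the mean z-score of the neocortical markers ibudilast 3 is the lowest of the ibudilast group (-0.253).

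With a score of the neocortical markers as a covariate, the log2 fold changes of Pde1a, Pde1b, Pde2a and Pde8b were -0.96, -0.09, -0.60 and -0.29 and none of the 4 passed (edgeR adjusted p from 0.261 to 0.902), while Pde5a and Pde1c were called higher, where 6.01% of all genes were (4.38 and 2.19; edgeR adjusted p = 0.0104 and 0.0446). With ibudilast 3 also left out the same fit called 0 of the 10 genes and 0.00% of all genes (566 at an unadjusted p under 0.05), and gave 0.85 for Pde5a. The score differs between the groups itself, so in these fits treatment and marker level cannot be told apart. The genes most alike in pattern were found by the correlation of log2 CPM, centred within each group, over the 10 libraries. For Pde5a they included Chd2 and Icmt (Pearson r = 0.99 and 0.97, Spearman rho = 0.85 and 0.82), and without ibudilast 3 Pearson r was 0.88 and 0.73. For Pde7a they were Zfp26, RGD1309139 and Efcab7 (r = 0.95, 0.94 and 0.94), and for Pde8b Frem2, Sdk2 and Dlgap2 (r = 0.99, 0.99 and 0.98, or 0.95, 0.95 and 0.94 without ibudilast 3). The points of each correlation share libraries and scaling factors.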

How the data were processed

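Expected counts per gene, estimated by the authors, were deposited for 10 libraries. The submitters' processing notes name bcl2fastq 2.17, Bowtie2 2.1.0, RSEM 1.2.15, edgeR and the rn6 build; the sources used here do not give annotation or counting strand. Per the labels' protocols, libraries were strand-specific mRNA libraries. A second deposited file, a signal of CPM scaled with TMM by the authors, served for 1 alternative. Treatment labels gave the groups and titles the replicate numbers. The edgeR p-values set the group difference against the variation between libraries, each from 1 rat. The permutation p-values of the family ratios come from rearranging the group labels.

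Counts were rounded and compared by the quasi-likelihood test of edgeR 4.0.16 (R 4.3.3) after filterByExpr and TMM scaling, with Benjamini-Hochberg adjustment over 11682 genes and a threshold of 0.05, and 25 symbols turned into dates were restored from the second table. The SE is the log2 fold change divided by the root of the F statistic. Family ratios used log2 of CPM + 0.5 and exact permutation. Scores are mean z-scores of log2 CPM. Gene span came from the GRCr8 RefSeq table (98.4% of tested genes), an approximation for rn6 counts. The code was tested on simulated data.

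Alternatives were DESeq2 1.42.0, limma-voom and limma-trend (limma 3.58.1), the replicate number as a block, animal tag range, marker scores and span as adjustments, left-out libraries, other filters, other scaling, and counts that were not rounded. Fits that leave out ibudilast 3 together with another adjustment were added after seeing the data. The members, lists and tests were chosen with earlier results of these data known. Named genes were all members and other phosphodiesterases, called pathway genes of smallest p (up to 4 per direction and list), and the 3 genes most correlated with each called member. A gene that this rule names is not reported here. The pathway genes Calm3, Prkg2, Npr1, Npr3 and Abcc5 were named outside that rule after their values were seen. So were the markers Gabra6, Cbln3, Pcp2 and Itpr1 and the 9 tested smooth muscle and pericyte markers.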

Additional observations from a re-analysis of the deposited data

Results flagged for a closer look

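In 5 of 30 groups of 5 libraries (10 genes and 5 family ratios, each in both treatment groups), 1 library lay apart from the others by more than 0.71 of the group's range, where chance gives about 1 in 20 groups. All 5 were in ibudilast 3. Pde5a stood at 93.7 CPM there, Pde1c at 13.6 CPM and Pde9a at 51.1 CPM, each the highest of the ibudilast group. Pde1b, at 52.9 CPM, and Pde2a, at 257 CPM, were each the lowest of the ibudilast group. This is the library with the raised cerebellar, thalamic and interneuron markers.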

How the results depend on the processing

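The number of genes called over the whole table was 4497, and 877 with the neocortical score, 1650 with the hippocampal score and 0 with the neocortical score and ibudilast 3 left out. Of the 10 phosphodiesterase genes 3 were called higher, and 1 with upper-quartile factors, limma-voom or the span trend removed, 0 with the hippocampal score (2 at an unadjusted p under 0.05, edgeR) or with the neocortical score and ibudilast 3 left out (0 at an unadjusted p under 0.05, edgeR), and 1 to 5 with 1 library left out. None was called lower in the 27 alternatives. Log2 fold changes changed sign with the neocortical score for Pde1a (-0.96), Pde1b (-0.09), Pde2a (-0.60), Pde8b (-0.29) and Pde9a (0.18), and with that score and ibudilast 3 left out for Pde1a (-0.15), Pde1c (-0.46) and Pde7a (-0.24). They also changed sign with the span trend removed for Pde2a (-0.08), with ibudilast 3 also left out for Pde1c (-0.25), and without untreated 2 for Pde9a (0.10, where leaving out 1 library gave -0.30 to 0.10). The cause was not tested. The group difference in log2 ratio with 1 library left out ran from -0.001 to 0.492 for Pde1a to Pde1b, -0.174 to 1.139 for Pde1a to Pde1c, -0.248 to 0.688 for Pde1b to Pde1c, -0.034 to 0.232 for Pde7a to Pde7b and -0.451 to 0.116 for Pde8a to Pde8b, and none passed.

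Replicate numbers did not pair the samples: deviations of same-numbered libraries correlated at -0.13 to 0.02, and 0 of the 5 untreated libraries correlated best with their own number. With the replicate block 3535 genes were called over the table and 2 of the 10 (Pde5a, at 1.92, and Pde8b, at 0.63). Low counts limit Pde1c and Pde5a, with as few as 15 and 20 counts in a library.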

Other observations

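Pde8a was set against the oligodendrocyte markers within the groups. With log2 CPM and the marker score each centred on its group mean over the 10 libraries, Pearson r was 0.95 (exact permutation within groups, two-sided, p = 0.00194) and Spearman rho 0.81 (p = 0.021, exact permutation). Without ibudilast 2 and untreated 1, the libraries farthest from the median of the score, r was 0.85. Pde5a was set against the microglia markers in the same way, with Pearson r = -0.86 (p = 0.00375, exact permutation) and Spearman rho = -0.65 (p = 0.0424, exact permutation). Without ibudilast 1 and ibudilast 3, the libraries farthest from the median of that score, r was -0.61, and without ibudilast 3 alone it was -0.80. These were the relations of smallest p among 140 between the 10 genes and 14 marker scores. Both had a Benjamini-Hochberg adjusted p of 0.263, so they failed the correction, as did all others of the 140.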
